A study of Mus musculus with 20 samples.

Results

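The genes that cells switch on between the end of DNA replication and the completion of division were followed through 20 RNA-seq libraries from 8 mouse gastric organoid lines, that is stomach epithelium grown in a gel as small hollow tissues. The set was a list of 40 gene symbols of the G2 phase and mitosis, taken by name and not by measured level. All 40 were present among the 24047 genes of the count table, and all 40 were among the 13476 genes with enough counts to be tested. The number at the front of a library's title was taken as its organoid line. All lines were of the BL/6 strain and grew in conditioned medium. Among the p53 knockout (KO) lines, 794 and 801 were dysplastic and had lost p53 in vivo (3 libraries each). KO line 1270 was non-dysplastic with an ex vivo KO, and KO line 650 was non-dysplastic with an in vivo KO (2 libraries each). Wild-type (WT) lines were 565 and 752, dysplastic (3 libraries each), and 300 and 1269, non-dysplastic (2 libraries each). The series asked how mRNA levels compare in gastric organoids with and without p53. Every dysplastic KO line had its KO made in vivo and the ex vivo KO is a single line, so the mode of the KO cannot be told apart from the line. How the allele was deleted, by which driver and in which cells, is not given in the sources used here. Since the labels do not tie lines to separate animals or cultures, a p-value speaks of how these 8 lines vary and may reflect technical spread alone.

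Entry into mitosis is driven by Cdk1 bound to B-type and A-type cyclins, and exit follows when the anaphase-promoting complex, a ubiquitin ligase switched on by Cdc20, has the cyclins and securin destroyed. Most genes of the programme are held silent in resting cells and in early G1 by the DREAM complex and are switched on in cycling cells by B-Myb and Foxm1, through promoter letters called the cell cycle genes homology region (CHR) and through CCAAT boxes bound by NF-Y. p53 is known to lower many of these genes indirectly, through the Cdk inhibitor p21, the product of Cdkn1a, which favours DREAM. In the stomach, dividing cells are found mainly in the isthmus of the glands, and organoid cultures are kept dividing by growth factors in the medium. In bulk libraries a lower level of such genes can come from fewer dividing cells or from less RNA per cell, and these cannot be told apart here.

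The promoters are shown because many of the members carry the same letters close to the start. Any link between these letters and the levels in the lines was not tested. RefSeq promoters (build GRCm38.p6, 250 bases before to 50 bases after the annotated start) were found for 34 of the 40 members, all except Kif20a, Cdc25c, Ccna2, Aurkb, Tpx2 and Foxm1. The letters TTTGAA, a CHR form, stood on either strand in 24 of these 34 (70.6%), against 20.2% of 27025 promoters and 14.1% of the 10079 that belong to tested genes. In 22 of the 34 (64.7%) the match lay within 50 bases of the start, against 5.72% of all promoters and 3.73% of those of tested genes. The letters CCAAT stood in 25 of the 34 (73.5%), against 41.1% of all promoters and 43.0% of those of tested genes. Both TTTGAA and CCAAT were present in 21 (61.8%), against 7.97% of all promoters and 5.80% of those of tested genes. A second CHR form, TTTAAA, which reads the same on both strands, stood in 11 (32.4%), against 14.9% and 11.1%. TTTGAA and TTTAAA differ in a letter, so no match counts for both, and a match is a description of letters and not of a bound site. In the 6 promoters below, 150 bases before the start to 30 bases after it are given on the gene's own strand, with matches in capitals (ATTGG is CCAAT read on the other strand).
Mki67 (chr7:135716350-135716529, minus strand): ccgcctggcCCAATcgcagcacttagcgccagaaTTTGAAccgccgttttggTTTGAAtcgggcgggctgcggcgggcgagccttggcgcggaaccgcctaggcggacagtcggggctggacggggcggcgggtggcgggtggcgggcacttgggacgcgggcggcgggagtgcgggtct
Cdk1 (chr10:69352883-69353062, minus strand): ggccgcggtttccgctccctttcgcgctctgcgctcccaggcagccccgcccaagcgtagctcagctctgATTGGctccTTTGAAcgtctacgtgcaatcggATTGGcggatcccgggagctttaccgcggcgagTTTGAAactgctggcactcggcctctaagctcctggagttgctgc
Ccnb2 (chr9:70421525-70421704, minus strand): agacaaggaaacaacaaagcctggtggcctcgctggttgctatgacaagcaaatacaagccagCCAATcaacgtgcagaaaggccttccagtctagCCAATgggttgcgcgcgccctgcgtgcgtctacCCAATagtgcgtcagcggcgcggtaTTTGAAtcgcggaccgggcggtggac
Cdc20 (chr4:118437314-118437493, minus strand): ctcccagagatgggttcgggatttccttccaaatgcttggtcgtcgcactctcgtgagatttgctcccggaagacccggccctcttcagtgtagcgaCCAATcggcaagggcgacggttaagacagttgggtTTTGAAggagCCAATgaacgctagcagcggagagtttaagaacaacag
Cenpa (chr5:30666736-30666915, plus strand): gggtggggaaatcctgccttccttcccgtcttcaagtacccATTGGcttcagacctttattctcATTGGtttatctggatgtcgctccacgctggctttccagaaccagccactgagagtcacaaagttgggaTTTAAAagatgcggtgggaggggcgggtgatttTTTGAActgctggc
Knstrn (chr2:118813853-118814032, plus strand): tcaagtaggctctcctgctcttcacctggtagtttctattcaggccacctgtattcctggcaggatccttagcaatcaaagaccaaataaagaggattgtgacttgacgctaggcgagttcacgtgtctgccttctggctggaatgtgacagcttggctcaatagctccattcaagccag
Ccnb2 carried 3 CCAAT boxes upstream of a TTTGAA just past the start. Cdk1 carried 2 of each in the printed bases and a further CCAAT 208 bases upstream of the start. Cdc20 had a TTTGAA between 2 CCAAT boxes. Cenpa held both CHR forms close to the start, while the pair in Mki67 lay farther upstream. Knstrn held none of the 3 motifs in its window, and neither did Mad2l1, Nuf2 or Nusap1.

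**Figure D1:**
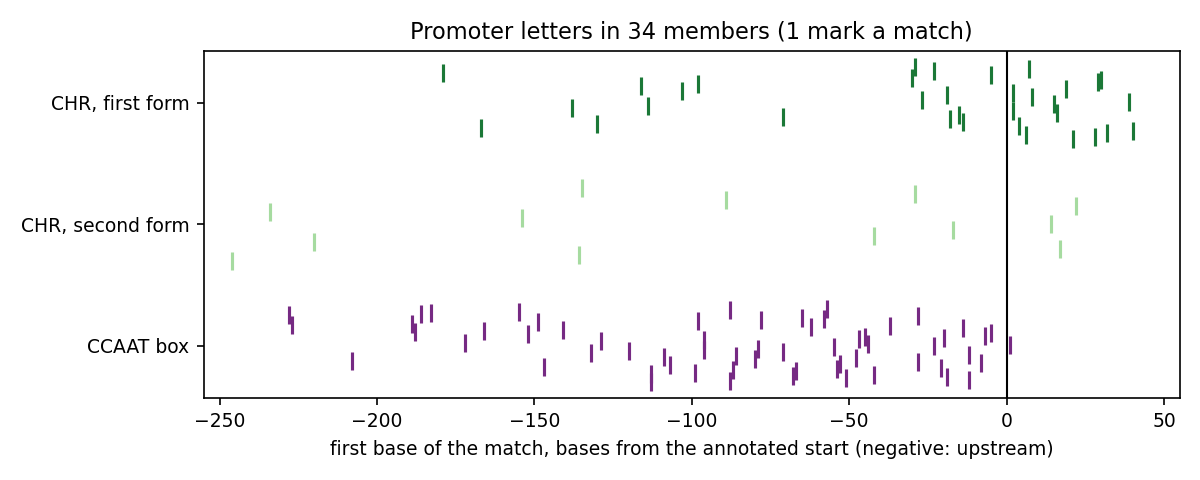
Positions of the searched letters in the 34 member promoters, as bases from the annotated start (negative is upstream), 1 mark a match, with TTTGAA (CHR, first form) on top, TTTAAA (CHR, second form) in the middle and CCAAT at the bottom, on either strand. TTTGAA marks gather around the start, where 22 of 34 members have one within 50 bases, and CCAAT marks lie mostly upstream.

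Library totals ran between 5669521 and 16323270 counts, and line totals between 22217126 and 36880593. The lowest count of any member in any library was 82, for Cdc25c, so counting error was small beside the spread between libraries. Trp53, the targeted gene, had 4.43 to 32.8 CPM (counts scaled to a common library size, with TMM factors) in the KO libraries and 98.1 to 165 CPM in the WT libraries, with no overlap (log2 fold change -3.17 ± 0.60, SE; edgeR's unadjusted p = 0.0013, adjusted 0.74). The KO lines differed in what remained: 4.43 to 11.4 CPM in line 794, 18.1 to 24.3 CPM in 801, 5.87 and 4.465 CPM in 1270, and 22.7 and 32.8 CPM in 650. Line 1270 stood at a log2 fold change of -2.43 against line 650, which held the KO library with the most Trp53. The part of this remaining transcript in the results was not tested. Which exons were deleted is not given in the sources used here. EdgeR's test had 4 residual degrees of freedom (3 for ex vivo against in vivo) and called 0 of the 13476 genes in each comparison below. DESeq2 and limma-voom, which called other genes, also called 0 members in each. Markers of gastric epithelium summed to 12830 to 16990 CPM in every line, with Tff1 under 1 CPM. Single markers varied widely: the mucus cell gene Tff2 was at 568 and 126 CPM in KO lines 794 and 801, 44.8 and 992 CPM in KO lines 1270 and 650, 209 and 818 CPM in WT lines 565 and 752, and 1060.0 and 15.3 CPM in WT lines 300 and 1269. It was thus lowest in the lines with the highest member levels and over 800 CPM in the 3 with the lowest. Gkn1 and Muc5ac did not follow that order. Gkn1 ran between 22.1 CPM in line 650 and 3614 CPM in line 794, with 492.2 CPM in line 1270 and 60.55 CPM in 1269. Muc5ac ran between 1.70 CPM in line 801 and 443 CPM in line 794, with 1.84 CPM in line 650. In lines 1270 and 1269 Muc5ac had 197.1 and 8.655 CPM. Of the 9 fibroblast markers, 4 to 6 were under 1 CPM in a line, and their sum was 13.1 and 122 CPM in KO lines 794 and 801, 11.9 and 90.0 CPM in KO lines 1270 and 650, 29.5 and 63.0 CPM in WT lines 565 and 752, and 9.77 and 6.88 CPM in WT lines 300 and 1269. Acta2 made up most of that sum in lines 801, 650, 565 and 752 but not in the other 4, and ran between 0.914 and 109 CPM, while Col1a1 was at 2.11 to 17.9 CPM and highest in line 650. Of the 8 immune markers, 5 or 6 were under 1 CPM in each line, Ms4a1 was at 0 in all 8 lines, and the sum of 76.7 to 155 CPM came mainly from Cd14 and Cd68. Endothelial markers summed to 0.895 to 8.05 CPM, squamous markers to 2.41 to 10.9 CPM and intestinal markers to 147 to 376 CPM, mostly Vil1. Line 650 had the lowest member levels and the highest Col1a1, and line 1269 the highest member levels and the lowest fibroblast sum. The part of these markers in the results was not tested. In 6 lines (794, 801, 650, 565, 752 and 300) the last-numbered library was treated as shifted from its sisters, a choice from these data that no label marks. By chi-square per degree of freedom, the libraries of line 1270 (65.41) and of line 1269 (35.79) differed more than the last of line 565 from its sisters (23.55 and 26.74). Lines 650 and 300 have 2 libraries each, so which of them stood apart cannot be told. Values without the 6 last-numbered libraries are given beside the results that they moved most.

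The clearest pattern was between single lines and not between genotypes. Line 1269 (WT, non-dysplastic) had the highest level of 35 of the 40 members, whereas it was the highest line for 19.1% of all genes tested. Line 650 (KO made in vivo, non-dysplastic) had the lowest level of 39 of the 40, against 14.6% of all genes. The exceptions at the top were Cdc25b and Bub1b, highest in line 1270, and Cdc25c, Cenpa and Knstrn, highest in line 794. At the bottom the exception was Cenpa, lowest in line 752. Without the 6 last-numbered libraries, line 650 was lowest for all 40 members and line 1269 highest for 37.

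Summed over the 40 members, the level was 4503 and 4340 CPM in KO lines 794 and 801, 5214 and 2610 CPM in KO lines 1270 and 650, 4123 and 3160 CPM in WT lines 565 and 752, and 3617 and 6315 CPM in WT lines 300 and 1269. The members thus took 0.261% of TMM-scaled counts in line 650 and 0.632% in line 1269. In KO lines the sum averaged 4167 ± 1105 CPM and in WT lines 4304 ± 1397 CPM (SD, n = 4 each), with wide overlap. It averaged 4032 ± 601 CPM in dysplastic lines and 4439 ± 1647 CPM in non-dysplastic lines (SD, n = 4 each). The dysplastic lines therefore lay closer together than the non-dysplastic ones, which held both extremes. For a single member, the highest line stood a median of 2.47 times above the lowest, and this ratio ran between 1.53 for Mad2l1 and 3.31 for Cenpe. The same ratio had a median of 1.72 over all genes tested.

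**Figure D2:**
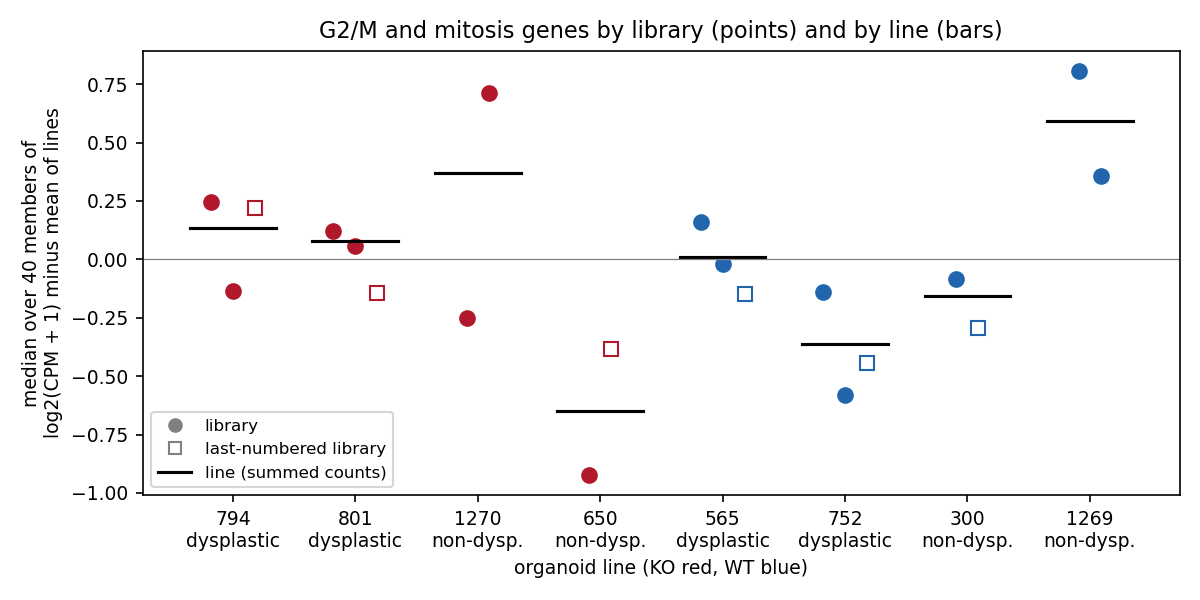
Median over the 40 members of log2(CPM + 1) minus the mean of the 8 lines, for each library (points, open squares for the last-numbered library of 6 lines) and each line (bars), KO lines on the left and WT lines on the right. Line 1269 lies at 0.59 and line 650 at -0.65, while the 2 libraries of line 1270 lie at 0.71 and -0.25.

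**Figure D3:**
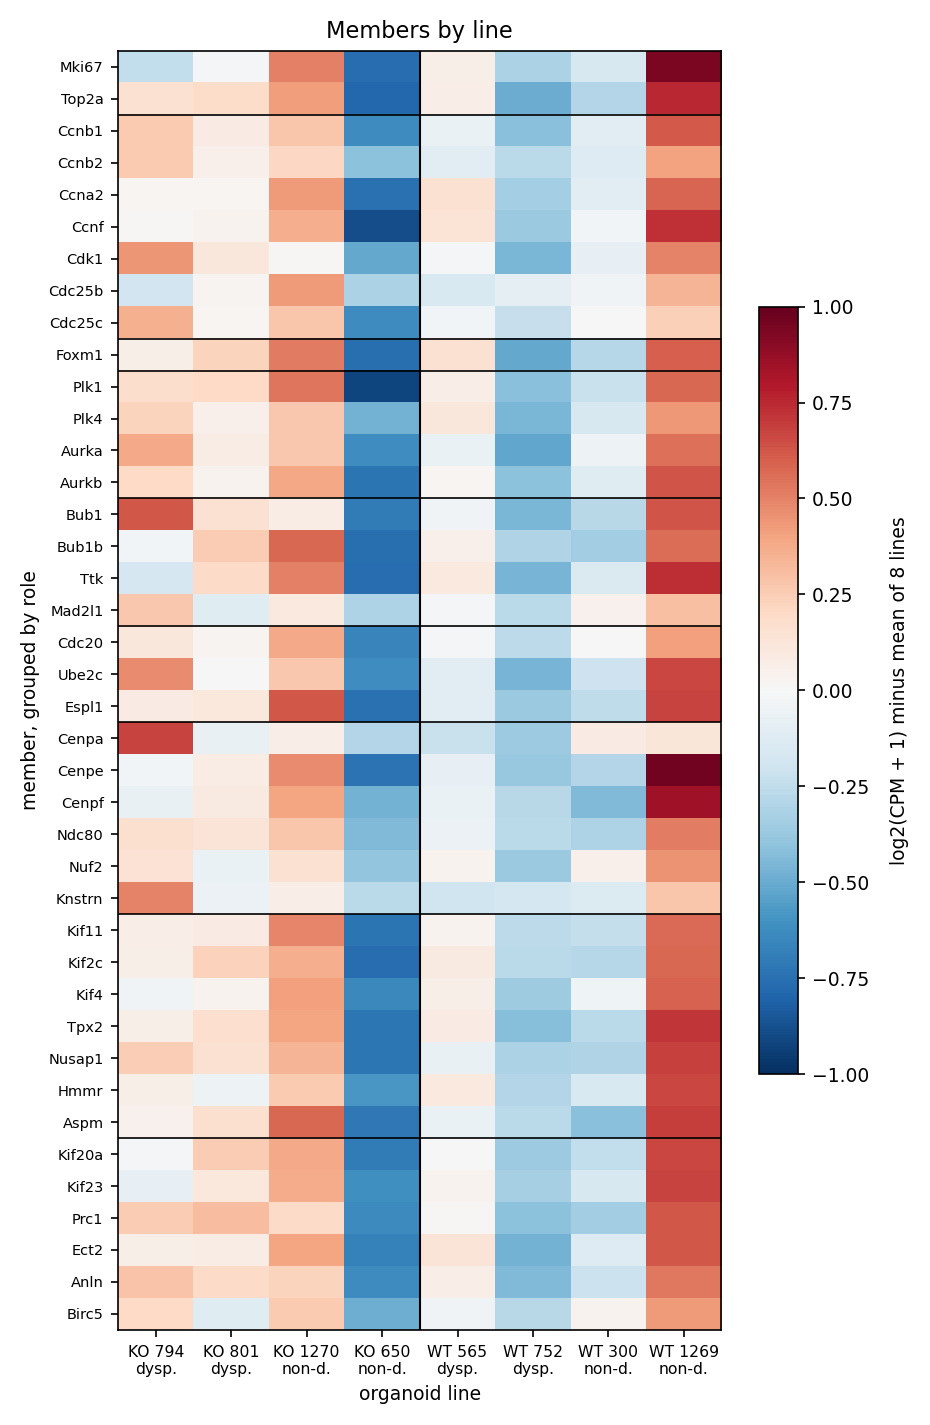
Level of each member (rows, grouped by role) in each line (columns, KO left of WT), as log2(CPM + 1) minus the member's mean over the 8 lines. Line 650 is low and line 1269 is high for nearly every row, and line 794 departs upward for Cenpa, Bub1 and Knstrn.

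The spread between replicate libraries of one line came close to that between line means. A line mean still holds part of the spread of its libraries, so the SD between line means overstates that of lines alone. The SD of log2(CPM + 1) between line means had a median of 0.40 over members, against 0.36 between libraries within a line, and for 16 of the 40 members the spread within lines was the larger. Over all genes tested the medians were 0.23 and 0.29. The ratio of the spread between lines to that within lines was 1.76 for Ccnf, the highest, and 0.36 for Mad2l1, the lowest, with Cenpa at 0.46. Members are given below by role, in CPM for every library. CPM is not scaled by gene length, so levels are not compared between genes.

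Mki67 encodes Ki-67, which coats mitotic chromosomes and is the usual marker of cycling cells, and Top2a encodes the topoisomerase that untangles sister DNA. In KO libraries, Mki67 had 279, 357 and 198 CPM in line 794, 339.8, 426 and 111 CPM in 801, 396 and 572 CPM in 1270, and 234 and 157 CPM in 650. In WT libraries, Mki67 had 373, 484 and 209.8 CPM in line 565, 278, 347 and 154 CPM in 752, 415 and 186 CPM in 300, and 838 and 468 CPM in 1269. The first library of line 1269 was highest and the last of line 801 lowest, and in every line except 1270 the last-numbered library was the lowest of its line. KO and WT lines overlapped in both dysplasia classes, with a log2 fold change of -0.01 ± 0.49 (SE) in dysplastic lines and -0.49 ± 0.49 in non-dysplastic lines. Top2a ran between 215 CPM in line 650 and 624.9 CPM in line 1269.

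The cyclins and their kinase set the timing of entry. In KO libraries, Ccnb1 had 92.0, 68.7 and 107 CPM in line 794, 79.6, 75.6 and 67.7 CPM in 801, 54.4 and 119.9 CPM in 1270, and 38.1 and 59.4 CPM in 650. In WT libraries, Ccnb1 had 80.4, 62.9 and 62.9 CPM in line 565, 65.9, 42.5 and 54.5 CPM in 752, 68.7 and 66.3 CPM in 300, and 132 and 92.8 CPM in 1269. Ccnb1 encodes cyclin B1. Its lowest value was in the first library of line 650 and its highest in the first library of line 1269, and the second library of line 1270 had more than 2 times the CPM of the first. In KO libraries, Cdk1 had 221, 150.1 and 361 CPM in line 794, 177, 161 and 224 CPM in 801, 105 and 231 CPM in 1270, and 73.0 and 181 CPM in 650. In WT libraries, Cdk1 had 183, 145 and 173 CPM in line 565, 134, 89.7 and 158 CPM in 752, 139 and 184 CPM in 300, and 272 and 208 CPM in 1269. The last-numbered library of line 794 stood highest, and the first of line 650 lowest. Both dysplastic KO lines lay above both dysplastic WT lines for Ccnb1 and Cdk1, with log2 fold changes of 0.41 ± 0.36 and 0.51 ± 0.29 (SE). In non-dysplastic lines the groups overlapped for both genes. Of the other 5, Ccnb2, Ccna2 and Ccnf (an F-box protein that marks proteins for destruction in G2) followed the same order of extremes, line 1269 highest and 650 lowest. Cdc25b and Cdc25c, phosphatases that activate Cdk1, ran between 83.7 and 140.9 CPM and between 10.8 and 22.4 CPM over lines.

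Foxm1 is the transcription factor that, with B-Myb, switches on G2 genes. In KO libraries, Foxm1 had 61.8, 44.9 and 66.5 CPM in line 794, 72.1, 59.0 and 49.8 CPM in 801, 55.6 and 101 CPM in 1270, and 28.4 and 37.2 CPM in 650. In WT libraries, Foxm1 had 75.3, 59.6 and 46.3 CPM in line 565, 48.8, 33.9 and 28.5 CPM in 752, 51.8 and 37.0 CPM in 300, and 95.6 and 71.3 CPM in 1269. The second library of line 1270 was highest, and the first of line 650 and the last of line 752 were lowest at nearly the same level. KO and WT lines overlapped in both classes. The log2 fold change was 0.29 ± 0.48 in dysplastic lines and -0.20 ± 0.48 (SE) in non-dysplastic lines.

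The mitotic kinases showed the same extremes. Plk1 acts at centrosomes, kinetochores and the midbody. In KO libraries, Plk1 had 128, 80.8 and 83.6 CPM in line 794, 119, 91.5 and 73.8 CPM in 801, 74.5 and 178 CPM in 1270, and 43.0 and 51.6 CPM in 650. In WT libraries, Plk1 had 111, 89.1 and 74.3 CPM in line 565, 94.5, 52.2 and 44.1 CPM in 752, 89.2 and 61.6 CPM in 300, and 159 and 107 CPM in 1269. Aurka works at the spindle poles. In KO libraries, Aurka had 103, 72.1 and 122 CPM in line 794, 80.4, 65.4 and 90.7 CPM in 801, 48.6 and 126 CPM in 1270, and 35.7 and 64.8 CPM in 650. In WT libraries, Aurka had 82.1, 58.7 and 68.8 CPM in line 565, 60.5, 40.1 and 54.5 CPM in 752, 69.9 and 73.6 CPM in 300, and 119 and 101 CPM in 1269. For both kinases the second library of line 1270 was highest and the first of line 650 lowest, and these are the 2 ends of the same KO, non-dysplastic class. Both dysplastic KO lines lay above both dysplastic WT lines, with log2 fold changes of 0.35 ± 0.48 for Plk1 and 0.52 ± 0.35 for Aurka (SE). Aurkb, the kinase of the chromosomal passenger complex, ran between 42.1 CPM in line 650 and 109.5 CPM in line 1269, and Plk4, which starts centriole duplication, between 25.9 and 49.7 CPM in the same lines.

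The spindle checkpoint delays anaphase until every chromosome is attached. Its kinase Bub1 was among the members with the largest differences between groups. In KO libraries, Bub1 had 100.4, 76.2 and 114 CPM in line 794, 74.8, 64.9 and 53.8 CPM in 801, 39.1 and 87.7 CPM in 1270, and 24.8 and 54.6 CPM in 650. In WT libraries, Bub1 had 68.1, 50.8 and 58.7 CPM in line 565, 52.5, 35.5 and 45.8 CPM in 752, 48.8 and 52.1 CPM in 300, and 100.1 and 92.0 CPM in 1269. The last-numbered library of line 794 was highest and the first of line 650 lowest. Both dysplastic KO lines lay above both dysplastic WT lines (log2 fold change 0.65 ± 0.39, SE), while the non-dysplastic groups overlapped (-0.52 ± 0.39). Bub1b (BubR1), Ttk (Mps1) and Mad2l1 (Mad2) had their lowest line in 650, and Mad2l1 had the narrowest range over lines of all members, 78.3 to 120.0 CPM.

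Anaphase starts when the Cdc20-bound ligase, with the ubiquitin carrier Ube2c, frees separase, the product of Espl1, to open cohesin. In KO libraries, Cdc20 had 158, 105 and 144 CPM in line 794, 126, 122 and 132 CPM in 801, 95.9 and 223 CPM in 1270, and 65.0 and 98.7 CPM in 650. In WT libraries, Cdc20 had 134, 114 and 121 CPM in line 565, 131, 80.8 and 97.5 CPM in 752, 124 and 126 CPM in 300, and 194 and 139.8 CPM in 1269. The second library of line 1270 was highest and the first of line 650 lowest. Both dysplastic KO lines lay above both dysplastic WT lines, narrowly, with a log2 fold change of 0.21 ± 0.34 (SE). Ube2c ran between 94.2 and 231 CPM and Espl1 between 21.95 and 60.7 CPM over lines, both lowest in 650 and highest in 1269.

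Kinetochore and centromere members include Cenpa, the histone H3 variant that marks centromeres, the motor Cenpe, the large coat protein Cenpf, the microtubule-binding pair Ndc80 and Nuf2, and Knstrn, which acts in sister chromatid separation. In KO libraries, Cenpa had 95.5, 66.3 and 249.8 CPM in line 794, 59.9, 60.8 and 122 CPM in 801, 57.2 and 103 CPM in 1270, and 37.9 and 97.3 CPM in 650. In WT libraries, Cenpa had 62.1, 56.7 and 77.9 CPM in line 565, 60.4, 36.8 and 93.4 CPM in 752, 59.8 and 106 CPM in 300, and 103 and 65.2 CPM in 1269. In line 794 the last library had more than 2 times the CPM of either sister, and in every further line except 1269 the last-numbered library was likewise the highest of its line. Both dysplastic KO lines lay above both dysplastic WT lines (0.65 ± 0.26, SE, on the log2 scale), and both non-dysplastic KO lines lay just below both non-dysplastic WT lines (-0.21 ± 0.26). Among all genes tested, 1.35% had that crossed order of lines. Without the 6 last-numbered libraries the non-dysplastic order no longer held, since Cenpa then had 80.8 and 38.0 CPM in KO lines 1270 and 650, against 60.0 and 83.9 CPM in WT lines 300 and 1269. Cenpe and Cenpf reached 149.6 and 139.6 CPM in line 1269, with 45.3 and 55.3 CPM in line 650.

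Spindle motors and assembly factors comprised 7 members. Kif11 slides spindle poles apart. In KO libraries, Kif11 had 130.0, 105 and 105 CPM in line 794, 125, 123 and 69.5 CPM in 801, 98.4 and 205 CPM in 1270, and 58.5 and 75.9 CPM in 650. In WT libraries, Kif11 had 125, 113 and 95.1 CPM in line 565, 104, 84.9 and 81.3 CPM in 752, 106 and 78.9 CPM in 300, and 200.2 and 126 CPM in 1269. Tpx2 activates Aurka on spindle microtubules. In KO libraries, Tpx2 had 158, 128 and 114 CPM in line 794, 166, 148 and 89.5 CPM in 801, 110.3 and 229 CPM in 1270, and 72.1 and 89.8 CPM in 650. In WT libraries, Tpx2 had 162, 139 and 113 CPM in line 565, 124, 86.2 and 74.6 CPM in 752, 134 and 81.9 CPM in 300, and 248 and 185 CPM in 1269. Both were lowest in the first library of line 650, and highest in the second library of line 1270 (Kif11) or the first of line 1269 (Tpx2). In dysplastic lines KO lay above WT without overlap for Kif11 (0.18 ± 0.42, SE, on the log2 scale) and overlapped with WT for Tpx2 (0.26 ± 0.44). Kif2c (a microtubule depolymerase), Kif4 (a chromosome-bound motor), Nusap1, Hmmr and Aspm (a spindle pole protein) all had their lowest line in 650 and their highest in 1269.

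Midzone and cytokinesis members complete division. Anln, or anillin, is the scaffold of the contractile ring. In KO libraries, Anln had 167, 122 and 158 CPM in line 794, 150.1, 139 and 104 CPM in 801, 94.5 and 187 CPM in 1270, and 62.0 and 102 CPM in 650. In WT libraries, Anln had 144, 129.5 and 108 CPM in line 565, 105, 76.5 and 85.7 CPM in 752, 117 and 91.8 CPM in 300, and 184 and 171 CPM in 1269. The second library of line 1270 and the first of line 1269 were highest and the first of line 650 lowest. Both dysplastic KO lines lay above both dysplastic WT lines (0.41 ± 0.36, SE, on the log2 scale). Prc1, which bundles midzone microtubules, the motors Kif20a and Kif23, Ect2 and Birc5 (survivin, of the chromosomal passenger complex) had ratios of highest to lowest line between 1.90 for Birc5 and 2.59 for Kif20a.

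In dysplastic lines, KO was compared with WT as 2 lines against 2. All members except Mki67 had a log2 fold change above 0, that is 39 of 40, against 52.5% of all genes. Because the members moved together across lines, such counts of signs, here and below, are not 40 independent observations. The median over members was 0.28, with a range of -0.01 to 0.65 and a median SE of 0.39, while the median of all genes was 0.01. For 21 of the 40 members both KO lines lay above both WT lines, as for 19% of all genes. They were Top2a, Ccnb1, Ccnb2, Cdk1, Cdc25c, Plk1, Aurka, Aurkb, Bub1, Cdc20, Ube2c, Espl1, Cenpa, Cenpe, Ndc80, Knstrn, Kif11, Nusap1, Aspm, Prc1 and Anln. Without the last-numbered libraries the count was 18, against 18.7% of all genes. By library, 0 members and 2.19% of all genes had all 6 KO libraries above all 6 WT libraries.

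By role, the log2 fold changes in dysplastic lines ran between -0.01 for Mki67 and 0.36 for Top2a, and between 0.05 for Cdc25b and 0.51 for Cdk1 among cyclins and their kinase. They ran between 0.29 for Plk4 and 0.52 for Aurka among the kinases, 0.18 for Ttk and 0.65 for Bub1 in the checkpoint, and 0.21 for Cdc20 and 0.53 for Ube2c in anaphase. At the kinetochore they ran between 0.18 for Cenpf and 0.65 for Cenpa, in the spindle between 0.09 for Hmmr and 0.40 for Nusap1, and in cytokinesis between 0.15 for Kif23 and 0.47 for Prc1. Role medians lay between 0.17 and 0.34.

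None of these differences passed edgeR's test, which called 0 members and 0% of genes. At an unadjusted p under 0.05 stood 1 member, Cenpa, and 4.36% of all genes. The 4 members with the smallest p were Cenpa, Knstrn, Cdk1 and Bub1. In KO lines Cenpa averaged 98.8 ± 36.0 CPM and in WT lines 63.1 ± 4.40 CPM (SD, n = 2 each). EdgeR's quasi-likelihood test gave it an unadjusted p of 0.0445, adjusted to 1. Without line 794 its log2 fold change was 0.22, and without the last-numbered libraries 0.42. In KO lines Knstrn averaged 84.3 ± 23.0 CPM and in WT lines 62.3 ± 0.63 CPM (SD, n = 2 each), with a log2 fold change of 0.44 ± 0.24 (SE). Without the last-numbered libraries, Knstrn had 82.6 and 62.4 CPM in KO lines 794 and 801, against 59.9 and 56.4 CPM in WT lines 565 and 752. In the same order of lines, Cdk1 then had 191.9 and 174 against 166 and 113 CPM (231 and 184 against 169 and 124 CPM with all libraries). Bub1 then had 91.2 and 72.0 against 60.4 and 44.6 CPM. Without line 752, the lower of the WT lines, the median over members was 0.09, and without line 565 it was 0.42.

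In non-dysplastic lines the same comparison held 1 ex vivo and 1 in vivo KO line against WT lines 300 and 1269. All 40 members had a log2 fold change below 0, against 54.5% of all genes. Their median was -0.34, with a range of -0.54 for Ccnf to -0.06 for Cdc25b and a median SE of 0.39, beside a median of -0.02 over all genes. The arms were wide, because each held one high and one low line, and for 39 members KO and WT lines overlapped. The 1 member without overlap was Cenpa, where both KO lines were below both WT lines, as in 10.6% of all genes. EdgeR's test called 0 members and 0% of genes, and at an unadjusted p under 0.05 it had 0 members and 1.91% of genes. The smallest p was that of Cdk1, at 145 ± 37.1 CPM in KO lines against 200.2 ± 55.6 CPM in WT ones (SD, n = 2 each; edgeR's unadjusted p = 0.15). Nuf2, Bub1 and Mad2l1 followed, with log2 fold changes of -0.37 ± 0.26, -0.52 ± 0.39 and -0.27 ± 0.22 (SE).

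The direction in non-dysplastic lines hung on single lines. Without line 1269 the median over members was 0.14, and without line 650 it was 0.08. Without line 1270, so that line 650 alone stood for KO, it was -0.93, and without line 300 it was -0.67. With only the second library of line 1270 the median was -0.10, and with only the first it was -0.67. At an unadjusted p under 0.05 stood 13 members without line 1270 and 15 with only its first library, with 0 called in each (edgeR).

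The interaction, that is the KO difference in dysplastic lines minus that in non-dysplastic lines, was above 0 for all 40 members, against 55.4% of all genes, with a median of 0.56, a range of 0.11 for Cdc25b to 1.16 for Bub1 and a median SE of 0.56. The median of all genes was 0.04. EdgeR's test of the interaction called 0 members and 0% of genes and had 0 members at an unadjusted p under 0.05, against 1.79% of genes. DESeq2 had 3 members at that level and limma-voom 4, and neither called one. EdgeR had 16 at that level, with 0 called, both without line 1270 and without its second library, where the median was 0.90. The smallest p in edgeR's test were 0.051 for Cdk1 (0.97 ± 0.41, SE), 0.056 for Cenpa (0.85 ± 0.37), 0.075 for Bub1 (1.16 ± 0.55) and 0.11 for Aurka (0.91 ± 0.50), all with adjusted p of 1.00. Leaving out 1 line at a time put the median over members between 0.07 without line 1269 and 1.20 without line 1270. As a mean over both dysplasia classes, KO against WT gave a median of -0.01, with 21 of 40 members below 0, against 51.5% of all genes. The range was -0.25 for Mki67 to 0.22 for Cenpa, and KO and WT lines overlapped for every member, while 2.38% of all genes had no overlap. Without line 1270 the median was -0.34 with 38 members below 0, and without line 1269 it was 0.22 with all 40 above 0. Without the 6 last-numbered libraries it was -0.08 with 37 members below 0, and Cenpa stood at 0.07. Without the first library of line 1270 it was 0.12 with 35 members above 0, and without the second it was -0.19 with 39 below 0. EdgeR had 0 members and 0% of genes past the threshold, and 0 members and 4.03% of genes at an unadjusted p under 0.05. The smallest p belonged to Cenpa, Knstrn, Mki67 and Ccnf, at 0.27, 0.48, 0.49 and 0.53 (edgeR, unadjusted).

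**Figure D4:**
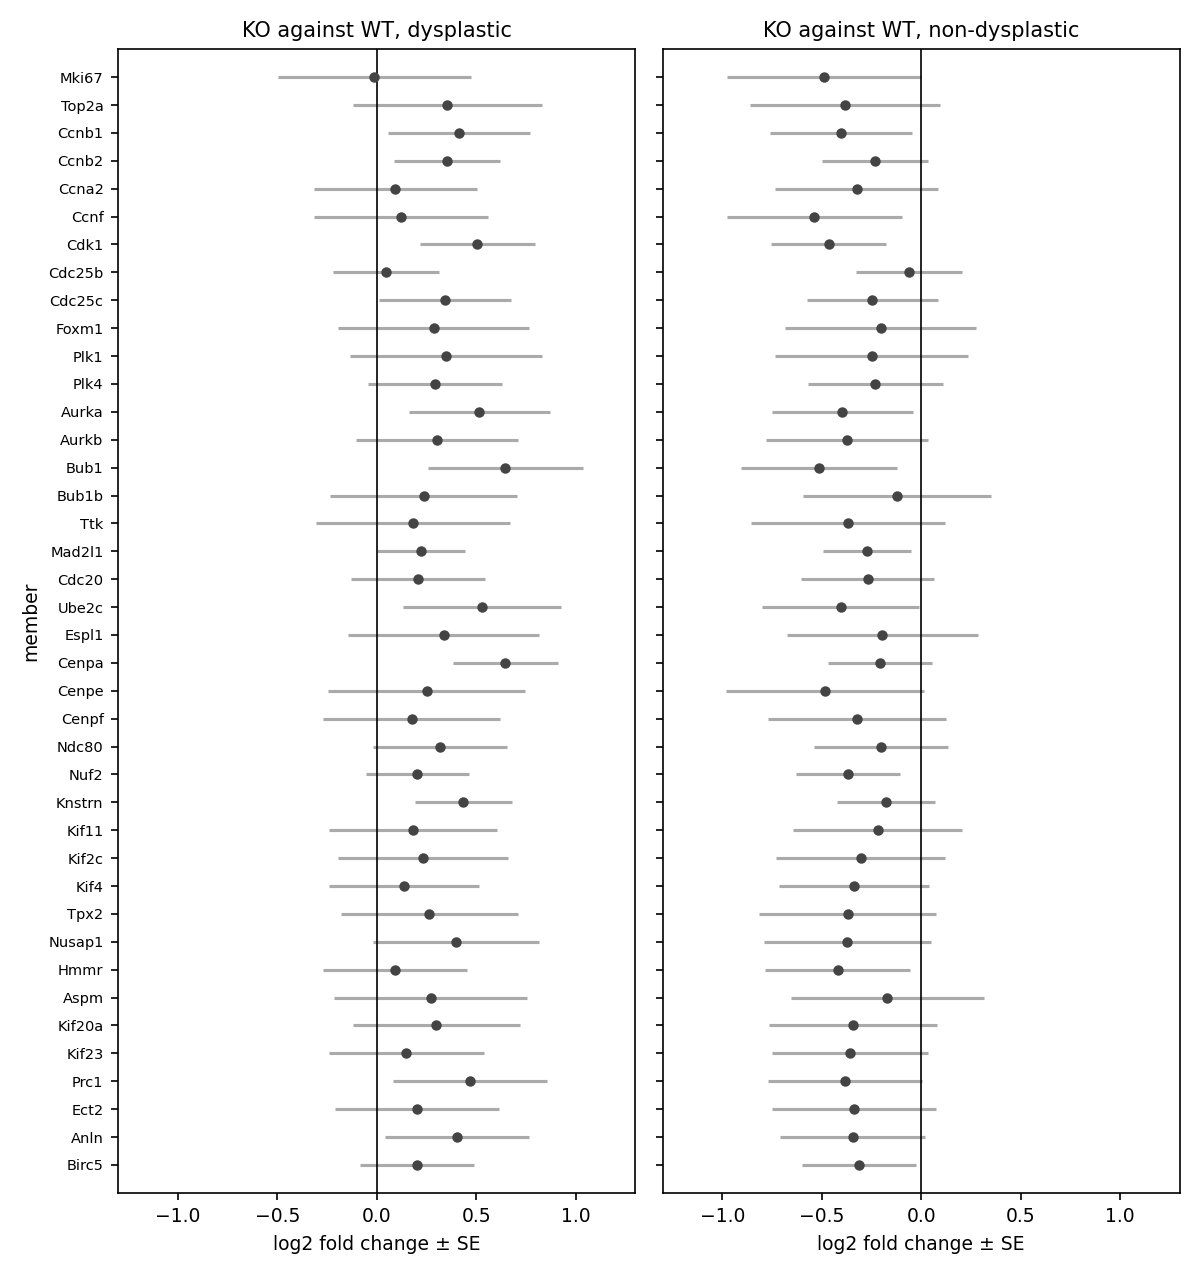
Log2 fold change of each member, KO against WT, in dysplastic lines (left) and non-dysplastic lines (right), with bars of 1 SE from edgeR's fit. Points lie right of 0 in the left panel except for Mki67, and left of 0 in the right panel, and most bars reach 0.

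Dysplastic WT lines were compared with non-dysplastic WT lines to see how the programme stood with p53 intact. All 40 members had log2 fold changes below 0, against 57.3% of all genes, with a median of -0.42 and a range of -0.70 for Cenpe to -0.27 for Cdc25c. For 9 members (Cdc25b, Cdc25c, Aurka, Mad2l1, Cdc20, Cenpa, Nuf2, Knstrn and Birc5) both dysplastic lines lay below both non-dysplastic lines, as for 12.1% of all genes. Without the 6 last-numbered libraries 3 of them, Cdc25b, Cdc25c and Cenpa, kept that order, against 13.8% of all genes. EdgeR called 0 members and 0% of genes, and 0 members and 1.16% of genes had an unadjusted p under 0.05. The smallest p were those of Nuf2, Aurka, Cdk1 and Cenpa. Nuf2 stood at 34.6 ± 6.95 CPM with dysplasia and at 46.5 ± 9.13 CPM without it in WT lines (SD, n = 2 each), with a log2 fold change of -0.43 ± 0.26 (SE). Without line 1269 the median over members was 0.06.

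In KO lines, dysplastic against non-dysplastic gave the other sign for most members. Of the 40, 36 were above 0, against 52.3% of all genes, with a median of 0.18 and a range of -0.18 for Cdc25b to 0.68 for Bub1. For Cdk1, Bub1 and Prc1 both dysplastic KO lines lay above both non-dysplastic KO lines, an order seen in 16.3% of all genes. It was seen for Cdk1, Bub1, Prc1 and Anln, and for 19.0% of all genes, without the 6 last-numbered libraries. Cdk1 averaged 207.5 ± 33.8 CPM with dysplasia and 145 ± 37.1 CPM without it, and Bub1 81.9 ± 19.0 CPM with and 51.1 ± 19.3 CPM without (SD, n = 2 each). EdgeR called 0 members and 0% of genes, and 0 members and 7.54% of genes had an unadjusted p under 0.05, while limma-voom had 1 member at that level. Without line 1270 the median was 0.79, and without line 650 it was -0.26. Without the first library of line 1270 the median was -0.09 with 27 members below 0, and without the second it was 0.54 with 13 members at an unadjusted p under 0.05 (edgeR). Over both genotypes, dysplastic against non-dysplastic gave a median of -0.13, with 33 of 40 members below 0, against 53.8% of all genes. That sign turned without line 1270 (median 0.16, 38 above 0), without line 1269 (0.09, 32 above 0) and without the second library of line 1270 (0.07, 30 above 0). The median was -0.06 without the 6 last-numbered libraries, with 31 members below 0 and Bub1 at 0.20. Dysplastic and non-dysplastic lines overlapped for every member, while 3.06% of all genes had no overlap. The largest of these differences were -0.37 ± 0.34 for Mki67 and -0.33 ± 0.35 for Cenpe (SE), and Bub1, at 0.10 ± 0.28, had the smallest p among the 7 members above 0. EdgeR again had 0 members and 0% of genes past the threshold, with 0 members and 5.91% of genes at an unadjusted p under 0.05.

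The line with the ex vivo KO was set against the non-dysplastic line with the in vivo KO, 1 line a side, so the spread came from the other groups and these lines are assumed to vary like them. All 40 members were higher in line 1270 than in line 650, against 48.2% of all genes, with a median log2 fold change of 1.02. The range was 0.34 for Knstrn to 1.47 for Plk1, and the median SE was 0.43. EdgeR called 0 members and 0% of genes. At an unadjusted p under 0.05 stood 16 members, against 7.07% of genes, and 26 with DESeq2 and 17 with limma-voom, which called no member either. The smallest adjusted p was 0.64, for Cdc20 (edgeR), which had 163 CPM in line 1270 and 79.2 CPM in line 650, a log2 fold change of 1.04 ± 0.28 (SE). Plk1 had 129 CPM in line 1270 and 46.5 CPM in line 650, Cdc25c 21.2 and 10.8 CPM, and Espl1 58.4 and 21.95 CPM. The members closest to no difference were Knstrn, Cenpa and Mad2l1, at 0.34, 0.36 and 0.41.

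Much of that distance lay in 1 library. All 40 members were higher in the second library of line 1270 than in the first, against 54.1% of all genes. The median log2 difference was 0.97, between 0.38 for Cdc25b and 1.36 for Aurka, and 15 members differed more than 2-fold, against 5.05% of genes. With the first library alone, line 1270 against line 650 had a median of 0.51 with 35 members above 0, and no member at an unadjusted p under 0.05 in edgeR's test. With the second alone the median was 1.37 and 35 members had an unadjusted p under 0.05. Without the 6 last-numbered libraries the median was 1.28, with 37 members at that level and 0 called. In line 1269 the order was the other way round, with 0 members higher in the second library than in the first and a median difference of -0.44. In line 650, 34 members were higher in the second library, with a median difference of 0.58.

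In the last-numbered libraries of lines 794, 801, 650, 565, 752 and 300 the members parted by the length of their coding sequence. The division into 20 shorter and 20 longer members was made after the values were seen, at a median of 2199 coding bases (longest coding sequence in GENCODE M21), and coding lengths were found for 91.7% of the genes tested. In the last library of line 801, against the mean of its sisters, the shorter members had a median log2 difference of 0.06 and the longer of -0.61, with 11 and 0 members higher. In line 794 these medians were 0.32 and -0.21. The median difference was 0.74 for shorter and 0.33 for longer members in line 650, -0.01 and -0.41 in line 565, 0.07 and -0.40 in line 752, and 0.04 and -0.43 in line 300. All 6 lines thus had the longer members below the shorter ones, in libraries picked from these same data. All genes tested, divided at the same length, showed medians of 0.06 to 0.12 for shorter and -0.47 to -0.24 for longer genes, so the same parting was present over all genes.

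The shortest and longest members stood at opposite ends. Cenpa, with the shortest coding sequence of 402 bases, averaged 1.02 ± 0.43 higher on the log2 scale in the last libraries (SD, n = 6 lines), followed by Mad2l1 at 0.87 ± 0.57 and Birc5 at 0.67 ± 0.41. Mki67, with the longest of 9531 bases, averaged -1.03 ± 0.43, and Cenpe, Aspm and Cenpf -0.87 ± 0.44, -0.87 ± 0.57 and -0.82 ± 0.58. In the second libraries of lines 1270 and 1269 the 2 sets lay closer together than in those 6 lines. Their medians were 1.07 and 0.92 for shorter and longer members in line 1270 and -0.43 and -0.47 in line 1269. There Mki67 stood at 0.53 and -0.84, and Cenpa at 0.84 and -0.66. In comparisons between groups the 2 sets also differed by less than in the last libraries of the 6 lines. KO against WT in dysplastic lines had a median of 0.35 over shorter and 0.24 over longer members, and in non-dysplastic lines -0.31 and -0.34. Dysplasia in KO lines had 0.24 over shorter and 0.09 over longer members, and line 1270 against line 650 had 0.87 and 1.16.

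**Figure D5:**
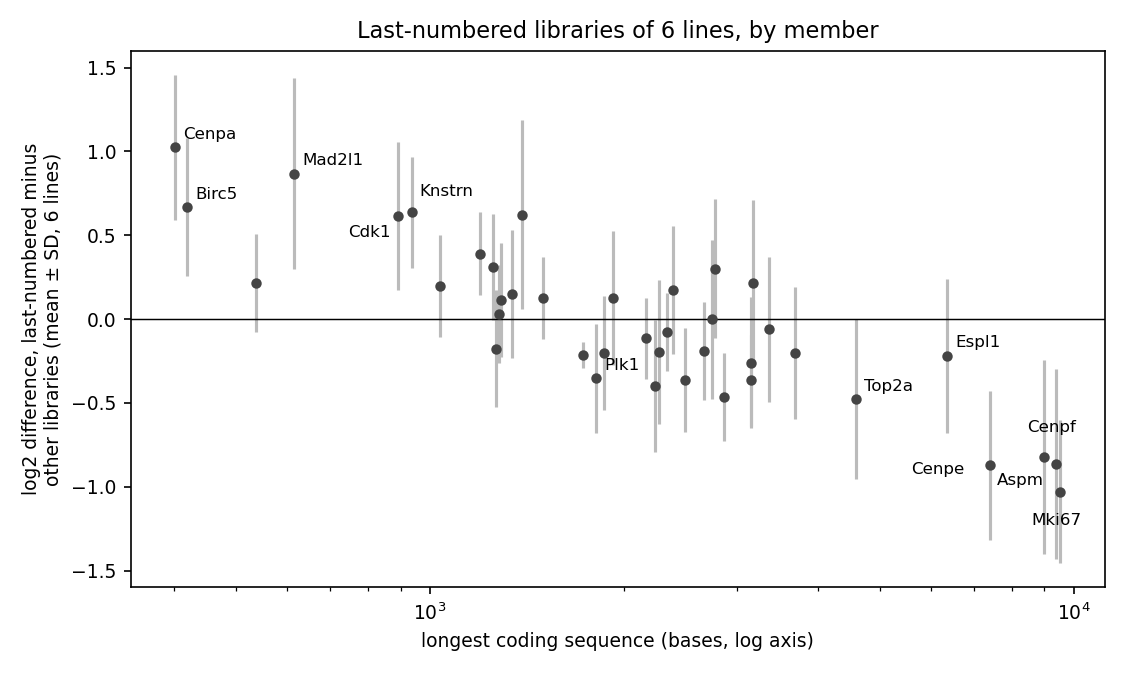
Log2 difference of each member between the last-numbered library and its sister libraries (mean of 6 lines, bars of 1 SD) against the length of its longest coding sequence in bases (log axis). Cenpa stands at 1.02 and Mki67 at -1.03, with the other members between them.

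Lists of further G2 and mitosis genes, of S phase genes and of G1 cyclins and kinases also had their highest sum in line 1269 and their lowest in line 650. The list of brakes and regulators was highest in line 1269 (3347 CPM) but lowest in line 1270 (1867 CPM), with 2079 CPM in line 650. A list of 68 further G2 and mitosis genes, all tested, summed to 4084 and 4330 CPM in KO lines 794 and 801, 5041 and 2673 CPM in KO lines 1270 and 650, 4018 and 3127 CPM in WT lines 565 and 752, and 3349 and 5609 CPM in WT lines 300 and 1269. Of these 68, 64 were above 0 in KO against WT in dysplastic lines (median 0.25), 65 were below 0 in non-dysplastic lines (median -0.27) and 66 were higher in line 1270 than in line 650 (median 0.88), with 0 called in each. The 38 S phase and replication genes summed to 2333 and 2978 CPM in KO lines 794 and 801, 3485 and 1636 CPM in KO lines 1270 and 650, 2883 and 2003 CPM in WT lines 565 and 752, and 2389 and 3940 CPM in WT lines 300 and 1269. Here too 0 were called. The smallest p among them for line 1270 against line 650 were those of the helicase subunit Mcm5, at 1.498 ± 0.44, and the DNA ligase Lig1, at 1.25 ± 0.40 (log2 fold change, SE). In dysplastic lines 32 of the 38 were above 0 (median 0.11), and in non-dysplastic lines all 38 were below 0 (median -0.37).

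Among those genes, Gtse1, known to bind and restrain p53 in G2, had 33.2 and 35.3 CPM in KO lines 794 and 801, 42.3 and 22.9 CPM in KO lines 1270 and 650, 65.2 and 43.2 CPM in WT lines 565 and 752, and 52.1 and 133 CPM in WT lines 300 and 1269. Every KO line was thus below every WT line, but only narrowly for line 1270 against line 752. Among all genes tested, 2.38% separated KO from WT lines in one direction or the other. The log2 fold change of Gtse1 was -1.08 ± 0.34 (SE; unadjusted p = 0.016, adjusted p = 1, edgeR). Fam64a, a mitotic regulator, had 55.3 and 36.2 CPM in KO lines 794 and 801, 25.6 and 18.8 CPM in KO lines 1270 and 650, 22.2 and 21.0 CPM in WT lines 565 and 752, and 20.1 and 24.4 CPM in WT lines 300 and 1269. In dysplastic lines its log2 fold change was 1.08 ± 0.26 (SE) and that of Cks1b, a Cdk-binding subunit, 0.78 ± 0.22, with adjusted p of 1 in both (edgeR). Like most members, Gtse1 was lowest in line 650 and highest in line 1269, and Fam64a was lowest in line 650 but highest in line 794.

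Among the brakes on the programme and its other regulators, 0 of 34 tested genes were called. Cdkn2a, which encodes the tumour suppressors Ink4a and Arf, had 284.5 and 126 CPM in KO lines 794 and 801, 58.8 and 64.2 CPM in KO lines 1270 and 650, 28.35 and 21.8 CPM in WT lines 565 and 752, and 17.8 and 20.8 CPM in WT lines 300 and 1269. Its log2 fold change over both classes was 2.35 ± 0.27 (SE; unadjusted p = 6.5e-05, adjusted p = 0.74, edgeR), and that of Ccng1, a p53 target, was -2.12 ± 0.41. Cdkn1a, chosen after its values were seen, had 211 and 95.8 CPM in KO lines 794 and 801, 32.1 and 196 CPM in KO lines 1270 and 650, 287 and 275 CPM in WT lines 565 and 752, and 224 and 425 CPM in WT lines 300 and 1269. Line 1269 had the highest Cdkn1a and the highest member sum, and line 1270 the lowest Cdkn1a and the next highest member sum. By library the order differed. In line 1269 the first library had 288 CPM of Cdkn1a and a member sum of 7368 CPM, and the second 576 and 5273 CPM. In line 1270 the first had 26.9 and 3533 CPM, and the second 37.45 and 6754 CPM. Any link between Cdkn1a and the members was not tested. Between lines 1270 and 650, Gadd45a and Sfn, inhibitors of entry into mitosis, had log2 fold changes of -1.27 ± 0.25 and -1.28 ± 0.26 (SE), with adjusted p of 0.53 for both (edgeR). The 8 G1 cyclins and kinases had medians of 0.13 in dysplastic and -0.24 in non-dysplastic lines, KO against WT, with Ccnd1 at -0.80 ± 0.29 in the non-dysplastic lines and 0 called.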

How the data were processed

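Messenger RNA was sequenced from 20 organoid libraries. Per the submitters' processing notes, tools were bcl2fastq and STAR 2.5, with mouse build mm9. The authors deposited unnormalized whole-number read counts for each gene symbol. Counter, annotation and strand use: not given in the sources used here. Overlapping and antisense genes may thus share reads. The members and all lists were chosen with earlier results of these data known.

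Genotype, dysplasia and mode of KO came from the labels, and lines from the title number. Libraries of one line were summed. Libraries of a line all differed by more than sampling noise (lowest chi-square per degree of freedom 5.84). In R 4.3.3, edgeR 4.0.16 (filterByExpr, TMM, robust quasi-likelihood test, Benjamini-Hochberg over 13476 genes, threshold 0.05) was fitted with 4 group means, leaving 4 residual degrees of freedom, or with 5 means, leaving 3, for ex vivo against in vivo. An SE is the log2 fold change divided by the square root of F. CPM were computed with TMM scaling, except sums over marker and other lists, which use library totals alone, and log2 levels used a pseudocount of 1. DESeq2 1.42.0 and limma 3.58.1 served as alternatives. Genes given in full were 12 leads covering every role, the 4 smallest p per comparison, the opposite-signed member with the smallest p, and the 2 smallest p of each other list. Only edgeR's test of KO against WT over both classes was run on simulated line sums, and the other comparisons and tools were not. Promoters came from RefSeq and coding lengths from GENCODE; neither shares the build of the counts, and no count was placed by coordinate.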

Additional observations from a re-analysis of the deposited data

Results flagged for a closer look

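In 6 cases the value of a single line stood far from the other lines of its group, by the gap to the nearest line over the group's range, among 84 groups of 4 lines looked at for 21 members. Chance gives about 1 in 20 such groups when they are independent. These groups share lines, and their members moved together and were partly chosen by smallest p, so the count cannot be set against that rate. Line 650 had 78.6 CPM of Anln, low among the KO lines, and 63.1 CPM of Cenpa, low among the non-dysplastic lines. Line 1269 had 149.6 CPM of Cenpe and 86.5 CPM of Knstrn, both high among the WT lines. Line 752 had 91.3 CPM of Kif11, low among the dysplastic lines, and line 794 had 100.6 CPM of Knstrn, high among the dysplastic lines. Cenpa stood out between classes, since both KO lines lay above WT with dysplasia and below WT without it, an interaction of 0.85 on the log2 scale that did not pass edgeR's test (adjusted p = 1.00), and that order did not hold without the 6 last-numbered libraries.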

How the results depend on the processing

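No member passed the threshold in the comparisons refitted under RLE scaling, library totals alone, no filter on low counts, DESeq2, limma-voom with lines as correlated blocks, that fit with a replicate block, 5 group means, or with the 6 last-numbered libraries, either library of line 1270 (chosen after seeing the data) or any 1 line left out (ex vivo against in vivo was not refitted with 5 means or without a line). The replicate numbers were not taken to pair the libraries, since not every same-numbered pair of different lines correlated above 0.1. Of those pairs, 32 of 62 did (median 0.13), against 37 of 112 pairs with different numbers (median 0), so that same numbers correlated above 0.1 more often, a hint from the data and not the design. The replicate block changed no member's call. With it, dysplastic against non-dysplastic was 0.016 for Mki67, 0.026 for Cenpe and 0.056 for Cenpf, against values below 0 without it. All genes called by DESeq2, limma-voom and limma-voom with the replicate block numbered 73, 63 and 50 for KO against WT, 6, 5 and 1 in non-dysplastic lines, 69, 101 and 38 in dysplastic lines, 153, 138 and 101 for dysplasia, 4, 0 and 0 for dysplasia in WT, 197, 239 and 140 in KO, 0, 0 and 0 for the interaction, and 186, 25 and 13 for ex vivo against in vivo, against 0 by edgeR in each.

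With 1 line left out, the median over members ran between -0.93 and 0.14 for KO against WT in non-dysplastic lines, -0.75 and 0.056 for dysplasia in WT, -0.26 and 0.79 for dysplasia in KO, and 0.067 and 1.20 for the interaction. Single members ran between -0.025 and 0.25 (Knstrn), -0.60 and 0.041 (Ccnf) and -0.64 and 0.087 (Mki67) for KO against WT, -0.95 and 0.059 for Bub1 in non-dysplastic lines, -0.20 and 0.17 for Mki67 in dysplastic lines, and -0.52 and 0.22 for Cdc25b for dysplasia in KO. For dysplastic against non-dysplastic they ran between -0.63 and 0.0071 for Mki67, -0.58 and 0.055 for Cenpe, -0.52 and 0.13 for Cenpf, and -0.10 and 0.36 for Bub1. Without the second library of line 1270, Knstrn was -0.0029 for KO against WT and the ex vivo median was 0.51. Without the first, Bub1 was -0.0325 for dysplasia. The causes were not tested. The limits are the number of lines, 2 in each class, and the length shift of the last libraries, since every member had at least 82 counts per library.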
